A study of Mus musculus with 24 samples.

Results

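The 10 genes Slc7a7, Slc7a2, Slc7a5, Slc7a11, Slc3a2, Slc38a2, Slc38a3, Slc38a4, Slc43a1 and Slc1a2 encode carriers, or subunits of carriers, that move amino acids across the plasma membrane of liver cells. They were taken as a list that was chosen with earlier results of these data known. They were found by the gene name that the array gives each probe, which yielded 19 of the 56605 probes. Of these, 14 probes of 9 genes cleared the scanner software's background test in 6 or more of the 24 mice, and these 9 genes stood among 23966 genes tested. The tenth, Slc7a11, was not above background on any array.

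Each array held liver RNA from a single mouse, and all 24 mice were wild-type C57Bl/6J males, 8 weeks of age, raised on Safe 04 chow. The study set sugar in the drinking water and fasting against ordinary feeding. Of the 4 groups of 6 mice, the first ate chow and drank tap water, the second had 20% glucose in that water for 24 hours, and the third 20% fructose for 24 hours. Mice of the fourth were fasted for 24 hours, and all groups were killed at ZT16, counted in hours from the onset of light. Levels are log2 signals of the processed spot intensity relative to the 75th percentile of the same array, so a difference of 1 is a 2-fold change. A gene was said to rise or fall when limma's adjusted p (Benjamini-Hochberg over all 23966 genes) was under 0.05.

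The liver receives dietary amino acids through the portal vein, and in fasting it takes up amino acids released by other tissues to make glucose and urea. Its carriers fall into families with different tasks. The light chains of the Slc7 family that work as exchangers are bound to the heavy chain Slc3a2, whereas the cationic carriers of the same family need no heavy chain. The Slc38 family couples neutral amino acids to sodium, Slc43a1 lets branched-chain amino acids and phenylalanine pass by facilitated diffusion, and Slc1a2 takes up glutamate with sodium.

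All 7 hepatocyte markers of the list used here were measured. The log2 of their mean linear signal, called the log2 mean signal, was taken for each mouse. It was 9.35 to 9.59 in water, 9.32 to 9.44 in glucose, 9.22 to 9.37 in fructose and 9.47 to 9.61 in fasted mice. The fasted mice lay above both sugar groups in this mean without overlap, and overlapped the water mice. The number of probes above background was 32516 to 36272 per array, and the lowest correlation between arrays of 1 group, across genes, was 0.985. Each of the 3 slides carried 2 mice of every group. Since whole liver was measured, fewer cells of a type and less RNA per cell cannot be told apart. The comparisons against water share the 6 water mice, and those of fasting share the 6 fasted mice, so their values are given side by side.

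Promoter windows of 3 members are shown because they hold the motifs searched. They are the 250 bases before a start site, from RefSeq on GRCm38.p6, in lower case with the match in capitals. The amino acid response element is the site at which the stress factor ATF4 acts on genes of amino acid uptake and synthesis. It was searched as TGATGNAA on both strands, together with the cyclic AMP response element TGACGTCA and the E-box CACGTG. The first window of Slc7a7 (chr14:54417945-54418194, minus strand) holds 1 response element, 141 to 134 bases before the start. The slice of 30 bases across that start (chr14:54417927-54417956) shows another, with 1 base before the start and 7 from it on. The window of Slc7a11 (chr3:50443614-50443863, minus strand) holds 2 facing copies, and that of Slc43a1 (chr2:84840073-84840322, plus strand) an E-box 64 to 59 bases before the start.
Slc7a7, first window: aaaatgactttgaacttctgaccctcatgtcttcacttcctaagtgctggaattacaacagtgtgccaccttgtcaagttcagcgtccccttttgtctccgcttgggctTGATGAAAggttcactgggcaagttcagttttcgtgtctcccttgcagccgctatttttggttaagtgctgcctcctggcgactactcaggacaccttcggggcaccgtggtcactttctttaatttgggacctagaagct
Slc7a7, first start: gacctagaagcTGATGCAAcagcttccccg
Slc7a11: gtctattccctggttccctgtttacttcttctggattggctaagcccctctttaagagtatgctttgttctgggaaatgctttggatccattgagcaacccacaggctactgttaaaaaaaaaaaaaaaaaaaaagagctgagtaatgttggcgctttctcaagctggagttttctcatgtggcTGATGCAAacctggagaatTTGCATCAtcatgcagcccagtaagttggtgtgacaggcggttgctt
Slc43a1: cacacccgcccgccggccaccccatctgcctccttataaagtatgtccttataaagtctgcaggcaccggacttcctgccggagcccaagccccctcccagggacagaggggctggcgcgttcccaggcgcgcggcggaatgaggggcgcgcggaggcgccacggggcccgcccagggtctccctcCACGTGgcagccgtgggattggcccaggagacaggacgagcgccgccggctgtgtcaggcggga

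The response element was found in 3.45% of all 32851 windows of that length, and 2 or more copies in 0.0396%. The E-box was found in 6.02% and the cyclic AMP response element in 1.55%. Of the members, 7 had a window, 13 windows in all, and the windows of Slc3a2, Slc38a2, Slc38a4 and Slc1a2 held none of these letters. Outside the windows and the Slc7a7 slice no bases were searched, so a match elsewhere, as in an intron, would not be seen. A match describes the letters and is not a measured binding site. Slc7a2, Slc7a5 and Slc38a3 were not matched in the promoter table.

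Fasting for 24 hours raised 4 of the 9 measured carriers and lowered 1. Slc7a2, Slc38a4, Slc43a1 and Slc38a2 rose, the first by 4.09-fold, and Slc7a7 fell by 0.33 on the log2 scale. Across all genes 42.6% passed the same test in this comparison, 21.7% as higher and 20.9% as lower. Groups without overlap were seen for 4 of the 9 carriers and for 24.2% of all genes. The members' median log2 fold change was 0.14 and that of all genes 0.02.

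Glucose raised Slc7a7 1.78-fold and lowered Slc7a2 and Slc38a4. These 3 of 9 stand beside 0.83% of all genes that passed in this comparison, 0.409% as higher and 0.421% as lower. Groups without overlap were seen for 5 of the 9 carriers and for 2.35% of all genes. Fructose raised Slc7a7 1.47-fold and lowered Slc38a4 and Slc43a1. These 3 of 9 stand beside 0.88% of all genes, 0.501% higher and 0.38% lower, and the groups did not overlap for 2 carriers and for 1.77% of genes. The members' median log2 fold changes were -0.10 with glucose and -0.07 with fructose, and those of all genes -0.005 and -0.012. Because the members were chosen with earlier results of these data known, their counts beside all genes do not test carriers as a class.

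**Figure D1:**
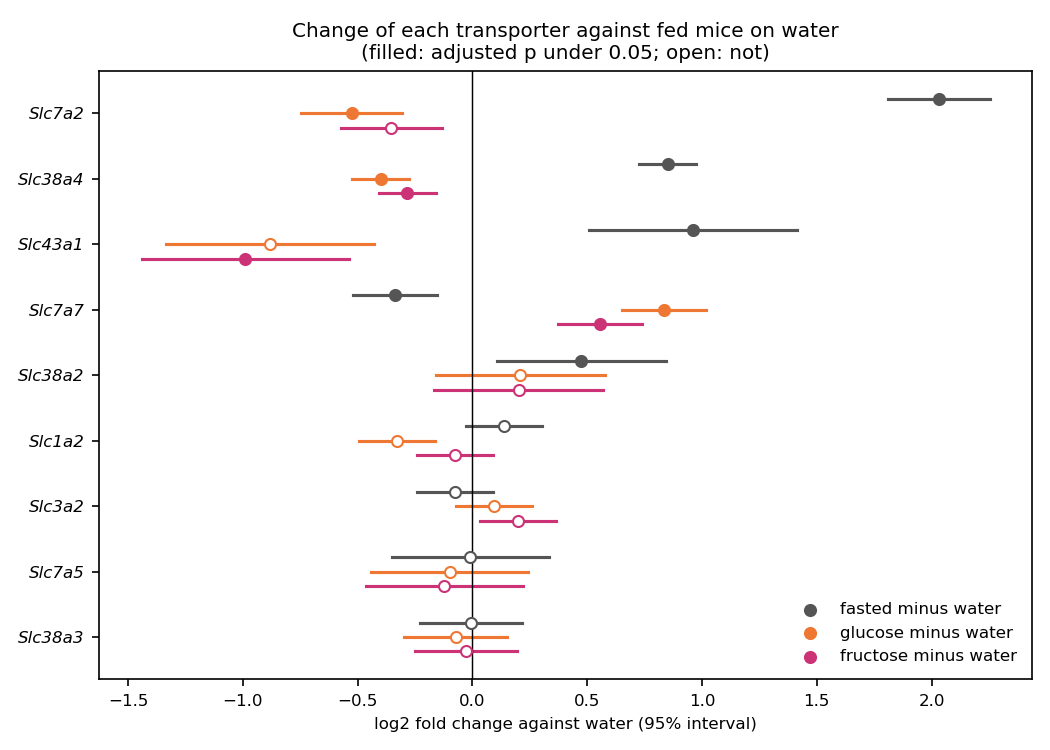
Log2 fold change of the 9 measured carriers against fed mice on water (x axis), with 95% intervals of the limma fit, for fasting, glucose and fructose; filled points passed at an adjusted p under 0.05. Slc7a2 lies at 2.03 with fasting and at -0.53 with glucose, while Slc7a7 lies at -0.33 with fasting and at 0.83 and 0.56 with the sugars.

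Slc7a2 encodes CAT-2, a carrier for the cationic amino acids arginine, lysine and ornithine, and its probe lies on chromosome 8 at 42003321 to 42003380 (mm9, plus strand). Water mice had log2 levels of 1.95 to 2.32 with a median of 2.15. Glucose mice ran from 1.43 to 1.93 (median 1.57), fructose mice from 1.55 to 2.02 (median 1.71) and fasted mice from 3.83 to 4.41 (median 4.22). Every fasted mouse lay above every fed mouse, and every glucose mouse lay below every water mouse, while the fructose mice overlapped both other fed groups. The rise with fasting was 2.03 ± 0.11 on the log2 scale (SE; adjusted p = 1.37e-12). With glucose Slc7a2 fell by 0.53 ± 0.11 (SE; adjusted p = 0.0165), 1.44-fold. The value with fructose was -0.35 ± 0.11 (SE; adjusted p = 0.111), which did not pass.

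The order of the groups for Slc7a2 was thus fasted, water, fructose and glucose, in which fructose could be set apart from neither of its neighbours by the test. Fasted mice were 5.89-fold above glucose mice and 5.22-fold above fructose mice. Within slides 1, 2 and 3 the log2 fold change with fasting was 2.01, 1.90 and 2.19, and with glucose -0.70, -0.42 and -0.46. By the brightest probe of each of the 9 measured carriers, only Slc7a2 moved by at least 1 log2 unit against water, and the second probe of Slc38a4 did so with fasting. Genes near to its 3 log2 fold changes against water were sought among 13777 genes above background on all arrays. These had a RefSeq symbol, and names of the Gm, Rik and LOC kinds were left out. The nearest 3 were Gpcpd1 (Euclidean distance 0.073), Aass (0.088) and Phip (0.17). Gpcpd1 had log2 fold changes of 1.96 with fasting, -0.52 with glucose and -0.345 with fructose. Aass, which encodes the first enzyme of lysine breakdown, had 2.04, -0.50 and -0.27 in that order, and Phip 1.88, -0.45 and -0.38. What these genes share with Slc7a2 was not tested.

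Slc7a7 encodes y+LAT1, the light chain that with Slc3a2 exchanges cationic for neutral amino acids. Its probe lies on chromosome 14 at 54989166 to 54989225 (mm9, minus strand). Log2 levels were 1.38 to 1.69 in water mice (median 1.52) and 2.18 to 2.71 in glucose mice (median 2.30). They were 1.86 to 2.28 in fructose mice (median 2.07) and 0.99 to 1.33 in fasted mice (median 1.19). Both sugar groups lay wholly above the water mice and the fasted mice wholly below them, and the sugar groups overlapped each other. Slc7a7 was the only one of the 9 measured carriers to rise with either sugar.

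With glucose Slc7a7 rose by 0.83 ± 0.09 (SE; adjusted p = 1.1e-05), and with fructose by 0.56 ± 0.09 (SE; adjusted p = 0.00386). With fasting it fell by 0.33 ± 0.09 (SE; adjusted p = 0.00349), 1.26-fold. Fasted mice were 2.25-fold below glucose mice and 1.85-fold below fructose mice. Within the slides the glucose value was 0.78, 0.66 and 1.06, and the fasting value was -0.34, -0.47 and -0.19. The call in each of these comparisons held under every setting tried and with any single array left out.

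Slc7a7 and Slc7a2 are also active in macrophages, so the Kupffer cell markers are given beside them. All 7 markers were measured. Their log2 mean signal was 3.58 to 4.04 in water mice, 3.44 to 4.22 in glucose mice, 3.33 to 3.84 in fructose mice and 3.73 to 4.41 in fasted mice. By limma 0 of the 7 passed in either sugar comparison. In each 1 had an unadjusted p under 0.05, beside 11.4% of all genes with glucose and 15.9% with fructose. With fasting 2 of the 7 were higher and 0 lower, beside 21.7% of all genes higher and 20.9% lower. Marco was higher by 1.04 and Vsig4 by 0.56 on the log2 scale. The part of Kupffer cells in the values of Slc7a7 and Slc7a2 was not tested.

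**Figure D2:**
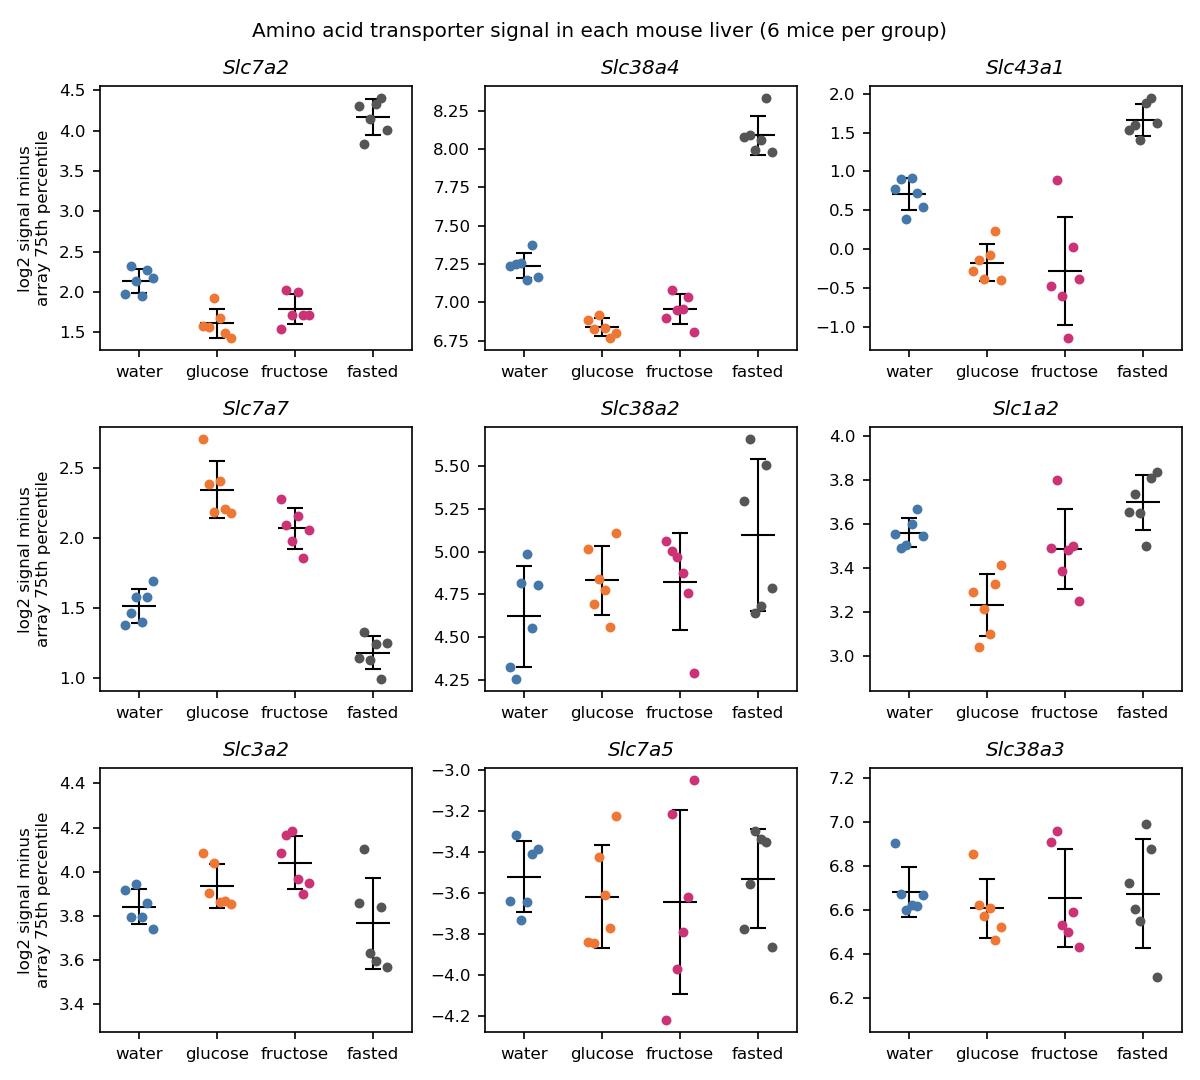
Log2 level of each measured carrier relative to the array's 75th percentile (y axis, own scale per gene) in each mouse, with 6 mice per group; lines are the group mean and bars 1 SD. For Slc7a2 the fasted mice sit between 3.83 and 4.41, above all fed mice, and for Slc7a7 the glucose mice sit between 2.18 and 2.71, above all water and fasted mice.

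Slc38a4, which encodes the sodium-coupled carrier SNAT4 and is imprinted in the mouse, rose with fasting and fell with each sugar. Its brighter probe lies on chromosome 15 at 96827256 to 96827315 (mm9, minus strand). Water mice had log2 levels of 7.15 to 7.38 (median 7.25), glucose mice 6.77 to 6.92 (median 6.83), fructose mice 6.81 to 7.08 (median 6.95) and fasted mice 7.98 to 8.33 (median 8.07). The fasted group stood above, and both sugar groups below, the water group without overlap, and the sugar groups overlapped each other. The rise with fasting was 0.85 ± 0.06 (SE; adjusted p = 1.28e-10), 1.80-fold. Slc38a4 fell by 0.40 ± 0.06 with glucose (SE; adjusted p = 0.00103) and by 0.28 ± 0.06 with fructose (SE; adjusted p = 0.0268).

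The second probe of Slc38a4 (chromosome 15, 96825482 to 96825541) gave 1.19 ± 0.08 with fasting, -0.41 ± 0.08 with glucose and -0.24 ± 0.08 with fructose (log2 fold change, SE). Its first 2 values passed over all probes and the last did not (adjusted p = 0.14). The fall with fructose was not held by each single mouse. It missed the threshold without water replicate 2 or 5 or fructose replicate 1, 3 or 6, with adjusted p between 0.0558 and 0.0709. The log2 fold change in these cases lay between -0.28 and -0.25.

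Slc38a2 encodes SNAT2, the sodium-coupled carrier of small neutral amino acids that cells make in larger amount when amino acids are scarce. Its brighter probe lies on chromosome 15 at 96518491 to 96518550 (mm9, minus strand). The log2 level was 4.25 to 4.99 in water mice (median 4.68), 4.56 to 5.11 in glucose mice (median 4.81), 4.29 to 5.06 in fructose mice (median 4.92) and 4.64 to 5.66 in fasted mice (median 5.04). All groups overlapped. The fasted mice formed no single cluster. Replicates 1, 2 and 5 were at 5.30, 5.66 and 5.51, above all fed mice. Replicates 3, 4 and 6 were at 4.64 to 4.79, within the range of the water mice. Replicates 2 and 5 were on slide 2, replicates 3 and 4 on slide 1, and replicates 1 and 6 on slide 3. The part of the slide in this split was not tested.

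The rise of Slc38a2 with fasting was 0.47 ± 0.18 (SE; adjusted p = 0.0349), 1.39-fold. It did not pass without water replicate 1, 2 or 5 or fasted replicate 1, 2 or 5, with adjusted p from 0.0596 to 0.101. By slide the value was 0.13, 0.90 and 0.39. The second probe of Slc38a2 (chromosome 15, 96527022 to 96527079) was above background on all arrays and gave 0.07 ± 0.13 (SE; adjusted p = 0.714). With glucose and with fructose the values of the brighter probe were 0.21 and 0.20 (SE 0.18 each), and neither passed.

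Slc38a3 encodes SNAT3, the system N carrier of glutamine, histidine and asparagine in hepatocytes. Its levels were 6.60 to 6.90 in water mice (median 6.64), 6.46 to 6.85 in glucose mice (median 6.59), 6.43 to 6.96 in fructose mice (median 6.56) and 6.30 to 6.99 in fasted mice (median 6.66). All 4 groups overlapped, and Slc38a3 passed in none of the 6 comparisons. The 95% interval of the difference was -0.23 to 0.21 with fasting, -0.30 to 0.15 with glucose and -0.25 to 0.20 with fructose, on the log2 scale. Its probe lies on chromosome 9 at 107553825 to 107553884 (mm9, minus strand).

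Slc43a1 encodes LAT3, which passes branched-chain amino acids and phenylalanine. Its brighter probe lies on chromosome 2 at 84703578 to 84703637 (mm9, plus strand). The log2 levels of this probe were 0.38 to 0.92 in water mice (median 0.75), -0.39 to 0.24 in glucose mice (median -0.21), -1.15 to 0.89 in fructose mice (median -0.43) and 1.41 to 1.95 in fasted mice (median 1.61). The fasted mice stood above all others, and the glucose mice below all water mice. The fructose mice were the most widely spread of any group for this gene, with an SD of 0.69 against 0.21 to 0.24 in the others, and overlapped the water mice.

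With fasting Slc43a1 rose by 0.96 ± 0.22 (SE; adjusted p = 9.44e-04), 1.95-fold, and stood 3.59-fold above glucose mice and 3.86-fold above fructose mice. With fructose it fell by 0.99 ± 0.22 (SE; adjusted p = 0.0341). The glucose value of -0.88 ± 0.22 (SE; adjusted p = 0.0579) did not pass, although these groups did not overlap. Fructose and glucose differed by -0.11 with a 95% interval of -0.56 to 0.34, so the calls against water do not show that the sugars act differently on this gene. The fall with fructose did not pass without water replicate 1, 2, 4, 5 or 6 or fructose replicate 1, 3 or 6 (adjusted p 0.0536 to 0.0893). Without fructose replicate 2, the mouse at 0.89, it was -1.22 (adjusted p = 4.31e-04). By slide the fructose value was -1.52, -0.38 and -1.07.

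The second probe of Slc43a1, whose listed span on chromosome 2 is 84692915 to 84694625, was above background on all 24 arrays and moved in no comparison with water. Its log2 fold changes were 0.06 with fasting, 0.02 with glucose and -0.08 with fructose (SE 0.10 each; adjusted p 0.665, 0.982 and 0.761). The values of Slc43a1 above therefore rest on 1 of its 2 probes. Of the carriers with more than 1 measured probe, only Slc38a4 had a second probe that passed in the comparisons with water.

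**Figure D3:**
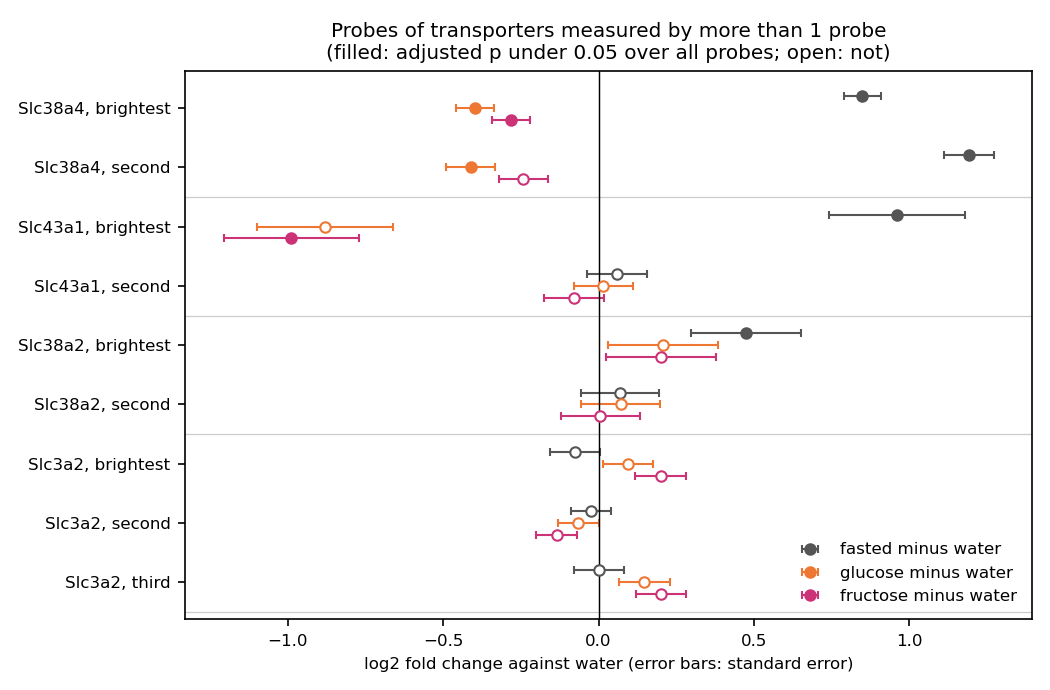
Log2 fold change against water (x axis, bars are the SE) of every measured probe of the carriers with more than 1; filled points passed at an adjusted p under 0.05 over all probes. The probes of Slc38a4 lie at 0.85 and 1.19 with fasting, those of Slc43a1 at 0.96 and 0.06, and those of Slc38a2 at 0.47 and 0.07.

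Slc7a5 encodes LAT1, the light chain that with Slc3a2 exchanges large neutral amino acids and is low in adult hepatocytes. Its levels were -3.73 to -3.31 in water mice (median -3.52), -3.84 to -3.23 in glucose mice (median -3.69), -4.22 to -3.05 in fructose mice (median -3.71) and -3.86 to -3.30 in fasted mice (median -3.45). All groups overlapped and no comparison passed. The 95% interval was -0.35 to 0.33 with fasting, -0.44 to 0.24 with glucose and -0.47 to 0.22 with fructose. The probe was above background on all 24 arrays and lies on chromosome 8 at 124430996 to 124431055 (mm9, minus strand).

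Slc3a2 encodes 4F2hc, the heavy chain that brings Slc7a5, Slc7a7 and Slc7a11 to the membrane. Its brightest probe (chromosome 19, 8782189 to 8782248, mm9, minus strand) read 3.74 to 3.94 in water mice (median 3.83) and 3.85 to 4.08 in glucose mice (median 3.89). Fructose mice had 3.90 to 4.18 (median 4.03) and fasted mice 3.57 to 4.10 (median 3.73). All groups overlapped. Against water Slc3a2 passed in no comparison, with log2 fold changes of -0.08 with fasting, 0.09 with glucose and 0.20 with fructose (SE 0.08 each). It was lower in fasted than in fructose mice by 0.28 ± 0.08 (SE; adjusted p = 0.007).

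The other probes of Slc3a2 gave -0.20 (adjusted p = 0.0493) and 0.11 (adjusted p = 0.179) for fasted against fructose mice. The probe with the value of 0.11 also lists transcripts of Fadd and Slc27a1. With the mean of the 3 probes in place of the brightest the difference was -0.12 and did not pass (adjusted p = 0.0839).

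Slc7a11 encodes xCT, the light chain that imports cystine for glutamate. Its 4 probes were well above background in 0 of 96 readings over the 24 arrays. They read -7.66 to -6.22 (median -7.21), where the dimmest probe that passed on an array was at -5.37 to -4.71. No fold is given for Slc7a11, and a change below that limit could not be measured here.

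Slc1a2 encodes the glutamate carrier GLT-1, which in the liver is found in the pericentral hepatocytes that make glutamine. Its brighter probe lies on chromosome 2 at 102617706 to 102617765 (mm9, plus strand), and the other was above background on 1 of 24 arrays. Log2 levels were 3.49 to 3.67 in water mice (median 3.55), 3.04 to 3.41 in glucose mice (median 3.25), 3.25 to 3.80 in fructose mice (median 3.49) and 3.50 to 3.84 in fasted mice (median 3.70). The glucose mice lay below all water and all fasted mice, and the other groups overlapped. Fasted mice stood above glucose mice by 0.47 ± 0.08 (SE; adjusted p = 4.13e-05), 1.38-fold.

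Against water no comparison of Slc1a2 passed: the value was -0.33 ± 0.08 with glucose (SE; adjusted p = 0.0525), 0.14 ± 0.08 with fasting (SE; adjusted p = 0.177) and -0.07 ± 0.08 with fructose (SE; adjusted p = 0.713). Without glucose replicate 6 the glucose value was -0.36 and passed (adjusted p = 0.0422), and with slide as a block it was -0.33 and passed as well (adjusted p = 0.0482). Fasted mice were above fructose mice by 0.21 ± 0.08 (SE; adjusted p = 0.0329). That call was lost without fructose replicate 3 or 6 or fasted replicate 2, 5 or 6 (adjusted p 0.054 to 0.0952). By slide the glucose value was -0.31, -0.45 and -0.23.

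Markers of cell types were counted in the same comparisons, where 42.6% of all genes passed with fasting, 0.83% with glucose and 0.88% with fructose. Of 8 periportal hepatocyte markers, 7 were higher and 1 lower with fasting, 4 were lower with glucose and 1 was lower with fructose. The 8 are Hal, Sds, Gls2, Ass1, Arg1, Cps1, Cdh1 and Pck1, and all but Cdh1 encode metabolic enzymes. Regulation of these genes and a change in the share of periportal cells cannot be told apart here. The log2 mean signal of the 8 was 7.26 to 7.63 in water mice, 6.81 to 7.14 in glucose mice, 6.97 to 7.36 in fructose mice and 8.21 to 8.52 in fasted mice. Of 9 pericentral markers, 2 were higher and 3 lower with fasting, and 1 was lower with glucose. With fructose 0 of the 9 passed by limma, and 3 had an unadjusted p under 0.05, beside 15.9% of all genes. The log2 mean signal of the pericentral markers was 7.06 to 7.30, 6.85 to 7.07, 6.78 to 7.05 and 7.40 to 7.53 in water, glucose, fructose and fasted mice. Of 5 cholangiocyte markers, Spp1, Krt19 and Krt7 were lower with fasting. The log2 mean signal of the 5 was 0.49 to 1.18 in water and -0.50 to 0.92 in fasted mice. Of 5 markers of pancreatic acinar cells, Cela1 and Ctrb1 were measured and Cpa1, Pnlip and Prss2 were not above background. The log2 mean signal of Cela1 and Ctrb1 was 3.66 to 4.03 in water and 1.38 to 2.91 in fasted mice, and Cela1 was lower with fasting. The part of these cell types in the values of the carriers was not tested.

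Fructose set against glucose asks whether the sugars differ. By limma 0 of the 9 carriers passed, as did 0% of all genes, and 2 carriers had an unadjusted p under 0.05, beside 7.8% of all genes. The sugar groups overlapped for all 9 carriers, and did not overlap for 0.647% of all genes. The 2 carriers with an unadjusted p under 0.05 were Slc7a7 and Slc1a2. Slc7a7 was at -0.28 with a 95% interval of -0.46 to -0.09 (adjusted p = 0.479). Slc1a2 was at 0.25 with an interval of 0.09 to 0.42 (adjusted p = 0.474). For Slc7a2 the difference was 0.17 with an interval of -0.05 to 0.39, and for Slc38a4 0.12 with an interval of -0.01 to 0.24. These intervals do not show that the sugars act alike on the carriers.

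Some mice on fructose lay at an end of their group for several carriers, seen after the values were known. Fructose replicate 2 had the highest level of its group for Slc7a2, Slc38a3, Slc38a4, Slc43a1 and Slc1a2. Fructose replicate 6 had the lowest level for Slc38a2, Slc38a3, Slc38a4 and Slc1a2, and the highest for Slc7a5. Both of these mice were on slide 2. Fructose replicate 1 had the highest level for Slc7a7 and Slc38a2 and the lowest for Slc7a2 and Slc7a5. Some mouse is at each end of its group for every carrier, and carriers read on the same array are not independent. The outlier check given further below flagged no fructose mouse. Without fructose replicate 2 the fall of Slc38a4 was -0.31 (adjusted p = 0.0182). The count of carriers that passed with fructose against water was then still 3.

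Fasted mice were set against each sugar group as well. Against glucose mice 5 of the 9 carriers passed, 4 higher and 1 lower, beside 44.6% of all genes (22.6% higher and 21.9% lower), and 5 had groups without overlap, beside 25.8%. Against fructose mice 6 passed, 4 higher and 2 lower, beside 45.3% of all genes (23.4% higher and 21.9% lower), and 4 had groups without overlap, beside 23.5%. Slc7a2, Slc38a4, Slc43a1 and Slc1a2 were higher in both, and Slc7a7 was lower in both. Slc3a2 was lower against fructose mice, and against glucose mice its value was -0.17 (adjusted p = 0.0914). Without fasted replicate 2 the value against glucose mice was -0.24 and passed (adjusted p = 0.00851). In the 5 comparisons in which carriers passed, those carriers had the same sign within each of the 3 slides. The slides hold the same mice that gave the calls, so this is no separate test. With either sugar against water, no carrier passed within a single slide, where each group had 2 mice.

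Of 43 other amino acid transporters on a list, 33 were measured. With fasting 14 of the 33 passed, 8 higher and 6 lower, beside 42.6% of all genes, and the median log2 fold change was -0.003. Slc1a4, an exchanger of alanine, serine and cysteine, was 3.38-fold higher, with levels of 5.44 ± 0.31 in fasted and 3.68 ± 0.25 in water mice (SD, n = 6). Slc16a10, a carrier of aromatic amino acids, was 2.01-fold higher. Slc36a1, which exports small amino acids with protons from lysosomes, was 2.53-fold lower, and the taurine carrier Slc6a6 was 2.28-fold lower.

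With glucose 1 of these 33 passed, beside 0.83% of all genes, and with fructose 2, beside 0.88%. Slc6a9, a glycine carrier, was higher by 0.46 with glucose (SE 0.09; adjusted p = 0.00967) and by 0.36 with fructose (SE 0.09; adjusted p = 0.0468), and Slc36a1 was lower with fructose by 1.41-fold (adjusted p = 0.0194). In fasted against glucose mice 16 passed, 7 higher and 9 lower, beside 44.6% of all genes. Slc1a4 was 4.36-fold, Slc16a10 3.25-fold and the betaine carrier Slc6a12 2.05-fold higher, while Slc6a6 was 2.35-fold and Slc36a1 2.18-fold lower. In fasted against fructose mice 14 passed, 6 higher and 8 lower, beside 45.3% of all genes. Slc1a4 was 4.27-fold and Slc16a10 2.36-fold higher, and Slc6a6 was 2.50-fold lower. Slc38a5, a system N carrier, was lower against both sugars, and no fold is given because 3 of the 6 fasted arrays were above background.

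**Figure D4:**
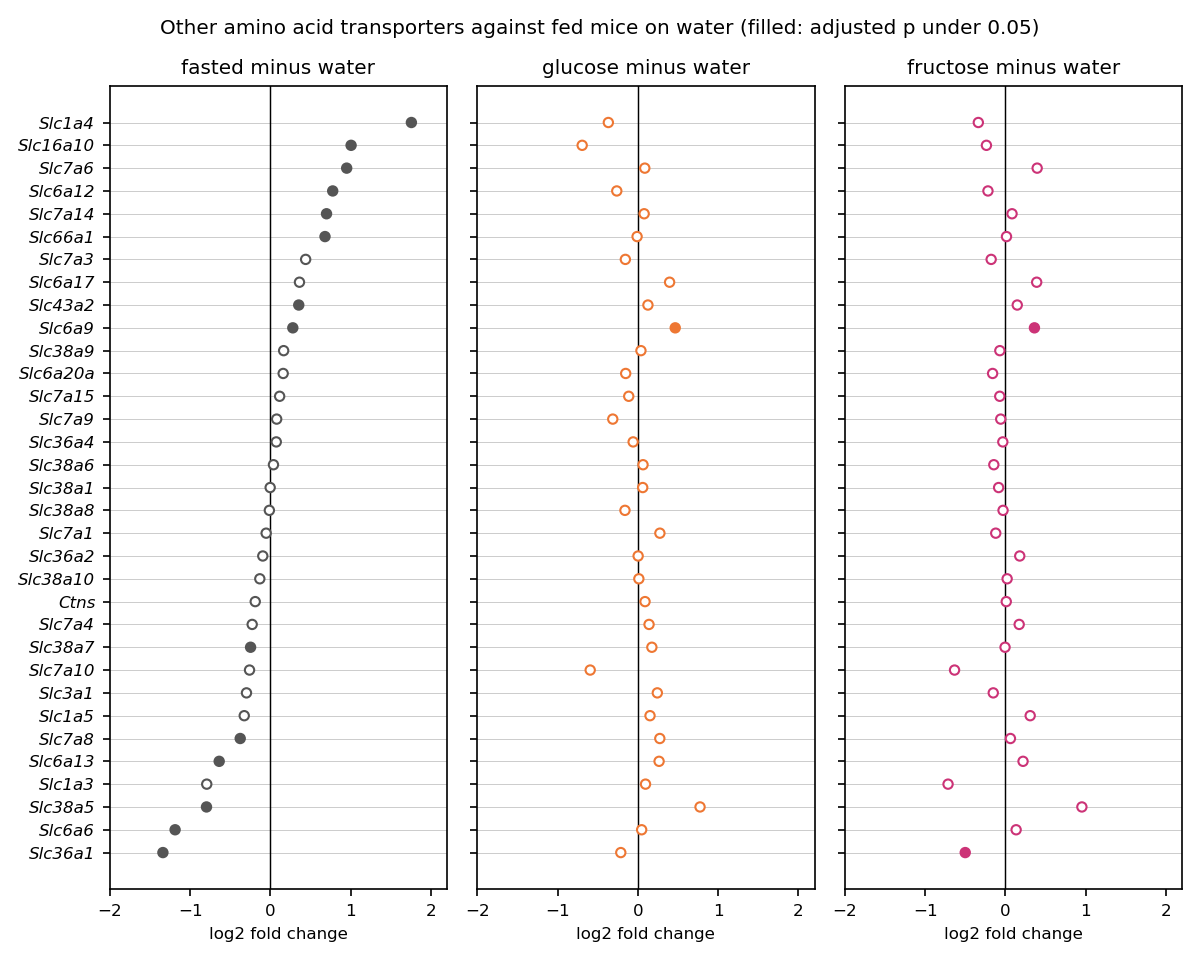
Log2 fold change against water (x axis) of the 33 other amino acid transporters that were measured, in order of the value with fasting, for fasting, glucose and fructose; filled points passed at an adjusted p under 0.05. Slc1a4 lies highest with fasting at 1.76 and Slc36a1 lowest at -1.34, and in the sugar panels Slc6a9 and Slc36a1 carry the filled points.

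Genes known as targets of ATF4 are given beside the carriers, several of which are known targets as well. The list was chosen with earlier results of these data known. Of 15 such genes that are no transporters, Atf4 itself among them, 7 were higher and 0 lower with glucose, beside 0.83% of all genes. With fructose 4 were higher and 0 lower, beside 0.88% of all genes. By limma 9 in each had an unadjusted p under 0.05, beside 11.4% of all genes with glucose and 15.9% with fructose. Psat1 and Phgdh of serine synthesis rose by 3.63 and 3.36 with glucose and by 2.72 and 2.12 with fructose, on the log2 scale. With fasting 5 were higher and 5 lower, Atf4 one of the latter, beside 42.6% of all genes that passed. Asns was 4.66-fold and Trib3 4.13-fold higher, while Psat1 was 2.14-fold and Mthfd2 2.03-fold lower. What these genes share with Slc7a7 was not tested.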

How the data were processed

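Liver RNA of 24 mice was measured on 1-colour Agilent arrays. Per the file headers, the deposited spot intensity was background-subtracted and detrended with Agilent Feature Extraction (10.10.1.1) and was not normalized between arrays. The authors also deposited log2 values of the whole series, whose normalization is not given in the sources used here, and they served as an alternative. Probe positions were taken as the array lists them, on mm9, and exon and UTR annotation of that build was not used here.

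Control and outlier spots were left out. The log2 intensity was averaged over the spots of a probe, each array's 75th percentile over probes was subtracted, and probes above background on 6 or more arrays were kept. The brightest kept probe stood for a gene. All groups entered 1 fit with limma (3.58.1, R 4.3.3) and no block, and the steps were tested on simulated data. Intervals are 95% and errors are SE unless stated. The number of arrays limits the precision. No link between groups is stated for the replicate numbers, and the main fit did not pair mice by them. Deviations of same-numbered mice correlated at 0.03 on average (-0.17 to 0.22 over 36 pairs, 9 above 0.1), and those of mice with other numbers at -0.007.

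Members and lists were chosen with earlier results of these data known. All members were named. Other transporters were named when they passed in a comparison with a log2 fold change of at least 1 either way; those that passed with a sugar, the ATF4 targets and the markers were named after their values were seen. Likeness to Slc7a2 was the distance over 3 log2 fold changes. Alternatives were normexp (offset 50), quantile normalization, other probe filters, the mean of a gene's probes, the authors' log2 values, slide or replicate number as a block, fits of 2 groups, single arrays left out and, chosen after seeing the data, the percentile taken over spots.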

Additional observations from a re-analysis of the deposited data

Results flagged for a closer look

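In 36 groups of 6 mice (9 carriers in 4 groups), the highest and the lowest mouse were set against the others, by the gap to the nearest mouse as a share of the whole range. Mice past Dixon's 95% critical value are given, which chance alone passes in about 1 of 20 groups. Slc38a3 in water replicate 1 was at 6.90, with the nearest mouse at 6.67 and the lowest at 6.60, a share of 0.765. Slc38a4 in fasted replicate 5 was at 8.33, with the nearest mouse at 8.09 and the lowest at 7.98, a share of 0.68.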

How the results depend on the processing

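Of the 54 results that pair a carrier with a comparison, 22 passed and 17 of these passed under every setting tried. In 1188 pairs of a result and a setting, 0 called values changed sign. The calls that were lost in some setting were those of Slc38a2 with fasting, Slc38a4 and Slc43a1 with fructose, and Slc1a2 and Slc3a2 in fasted against fructose mice. With glucose against water the count of carriers that passed was 5 in place of 3 with normexp, with only probes above background on all 24 arrays, with the authors' deposited table and with a fit of those 2 groups alone. The added genes were Slc1a2 and Slc43a1, each lower. With fructose against water it was 1 in place of 3, Slc7a7, without the filter on dim probes and with a fit of those groups alone. Leaving out single arrays gave 4 to 5 carriers for fasting, 3 to 4 for glucose, 1 to 3 for fructose, 0 to 0 for fructose against glucose, 5 to 6 for fasted against glucose and 5 to 6 for fasted against fructose mice. With the replicate number as a block the counts were 4, 4, 3, 0, 5 and 6 in that order: Slc38a2 was lost with fasting (adjusted p = 0.0638) and Slc43a1 gained with glucose (adjusted p = 0.0487). With slide as a block the glucose count was 4, with Slc1a2 added (adjusted p = 0.0482). Over all genes, 211 passed with fructose against water, and 549 with normexp, 79 without the filter, 367 with the authors' table and 74 with a fit of the 2 groups; 199 passed with glucose, and 120 without the filter and 304 with a fit of the 2 groups. With single arrays left out these counts ran from 65 (without water replicate 4) to 446 (without fasted replicate 2) for fructose and from 107 to 290, without the same arrays, for glucose. The cause was not tested. Carriers near background, as Slc7a11 was, cannot be measured on these arrays, and several members rest on 1 probe.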
